A study of Mus musculus with 6 samples.

Results

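Eicosanoids are signaling lipids made from arachidonic acid, and platelet-activating factor (PAF) is a related phospholipid mediator. The account covers 9 genes of their synthesis, reception and breakdown, which were chosen by symbol from the 22295 genes of the count table and were all found there: *Pla2g4a*, *Ptgs1*, *Ptgs2*, *Ptges*, *Ptger4*, *Hpgd*, *Alox8*, *Alox12* and *Pla2g7*. RNA was sequenced from GFP-positive keratinocytes sorted out of the back skin of 3 K19 *Itga3* WT mice, K19(Cre-ERT); mTmG, and 3 K19 *Itga3* KO mice, K19(Cre-ERT); mTmG; Itga3 fl/fl, all bred on FVB, with 1 library per mouse. Mice of both groups carried the Cre driver and the mTmG reporter, were given tamoxifen for 4 days, received 1 dose of 30 μg of the mutagen DMBA at 7 weeks of age, and were then treated with the tumor promoter TPA at 12.34 μg per application over 2 weeks. The labels give tamoxifen at 10 mg/ml from 6 weeks of age, whereas the methods give injections of a lower concentration, begun earlier, and topical doses in addition. Cre acts under the K19 promoter, so GFP marks hair bulge (HB) cells in which Cre was active and their progeny, and HB cells in which it was not active are not sampled. Columns of the table name the genotype without a sample number, so each library is called by its genotype and a letter (a, b, c) that follows the column order. Where 3 values are given for a genotype, they follow this order.

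In this pathway the phospholipase encoded by *Pla2g4a* frees arachidonic acid from membranes. Cyclooxygenases convert it to prostaglandin H2, from which the synthase encoded by *Ptges* makes prostaglandin E2 (PGE2), whereas lipoxygenases convert it to hydroxy fatty acids. PGE2 acts through receptors such as EP4 and is inactivated by the dehydrogenase encoded by *Hpgd*. Phorbol esters such as TPA are known to induce this pathway in mouse skin, and PGE2 is a known promoter of papilloma formation. No samples without DMBA/TPA were analysed here, so the response to the treatment itself was not measured.

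Depth was 20578309 to 23670507 counts per library, and 3 counts, taken as the floor of detection, were worth 0.127 to 0.146 CPM, the unit of counts relative to library size used here. The targeted gene *Itga3*, counted over the whole gene, stood at 371, 252 and 271 CPM in WT and 131, 124 and 134 CPM in KO. Its log2 fold change (KO over WT, as throughout) was −1.20, with a standard error (SE) of 0.13 and an adjusted p of 0.00283 from edgeR. Markers of HB and basal keratinocytes (8 of 8 detected, led by Krt5) summed to 31947 to 48876 CPM per library. Of these Cd34, a marker of bulge stem cells, fell in KO (log2 fold change −0.72, adjusted p = 0.0462 from edgeR), the 1 marker of any list to pass the test over the 6 libraries. Without WT b its adjusted p was 0.0685 (log2 fold change −0.76), and Col1a1 of the fibroblast list passed (log2 fold change −1.53, adjusted p = 0.0109 from edgeR). Col1a1 lies on chromosome 11, 0.0914 Mb from *Itga3*, and the part of the targeted locus in its level was not tested. Pf4 of platelets and Cma1 of mast cells had no more than 1 count in any library, and 3 of the 4 mast cell markers were not in the table. The 9 leukocyte markers, led by Cd74, summed to 12 to 17.0 CPM in WT and 11 to 18.0 CPM in KO, with Lyz2 at 0 in 5 of 6 libraries and at 2 counts in KO c. The 5 fibroblast markers were uneven. Their sum was 116 to 178 CPM in WT and 48.0 to 80.3 CPM in KO, led by Col1a1, whereas Dcn had a log2 fold change of 1.84 (adjusted p = 0.113). The 4 endothelial markers, led by Tek, summed to 5.56 to 8.67 CPM in WT and 3.70 to 4.97 CPM in KO, without overlap. They were uneven, with 2 higher and 2 lower in KO. Tek had a log2 fold change of −1.49 (adjusted p = 0.0708 from edgeR). Pecam1, at 21 to 44 counts, was higher in KO without overlap (log2 fold change 0.64, adjusted p = 0.411 from edgeR). The part of endothelial cells in the values of the 9 members was not tested. The melanocyte markers, led by Dct, summed to 5.37 to 11.6 CPM in WT and 8.96 to 9.53 CPM in KO. WT b stood apart, with the lowest sum of HB and basal markers (31947 CPM) and the highest sums of suprabasal (1870 CPM, led by Krt1, against 1173 to 1530 CPM elsewhere) and sebocyte markers (443 CPM, led by Scd1, against 187 to 352 CPM). Krt5 and Krt14 were lowest in WT b, whereas the HB and basal markers Krt15, Cd34, Lgr5, Sox9, Lhx2 and Itga6 were not. Of the suprabasal markers, Krt10 (721 CPM), Krt77 (244 CPM), Lor and Flg were highest in WT b. Krt1 (823 CPM, against 889 CPM in KO a) and Ivl were not. The sebocyte markers were split as well, with Scd1, Cidea and Mc5r highest in WT b, and Scd3, Mgst1 and Awat2 not. WT b was the highest or lowest of the 6 libraries in 55.3% of genes with a mean log2 CPM above 4, and in 5 of the 9 members (55.6%). KO a was the highest or lowest in 46.3% of these genes and likewise in 5 of the 9 members.

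Of the 9 members, only *Pla2g7* passed the test between the genotypes, and it rose in KO. The test was edgeR's quasi-likelihood test with Benjamini-Hochberg adjustment over 21681 genes, where 146 genes passed at an adjusted p below 0.05 (0.673%), of which 100 rose (0.461%) and 46 fell (0.212%). The KO and WT libraries did not overlap in 3 members, *Pla2g7*, *Ptges* and *Alox8*, each with all KO libraries higher, whereas 16.3% of all genes tested did not overlap, 8.03% with KO higher and 8.23% with KO lower. The median log2 fold change was 0.41 over the members and 8.82e-05 over all genes tested. The members were chosen with earlier results of these data known, so these counts and medians describe the chosen genes only and were not tested. Every member had at least 30 counts in each library, so none was near the floor of detection.

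**Figure D1:**
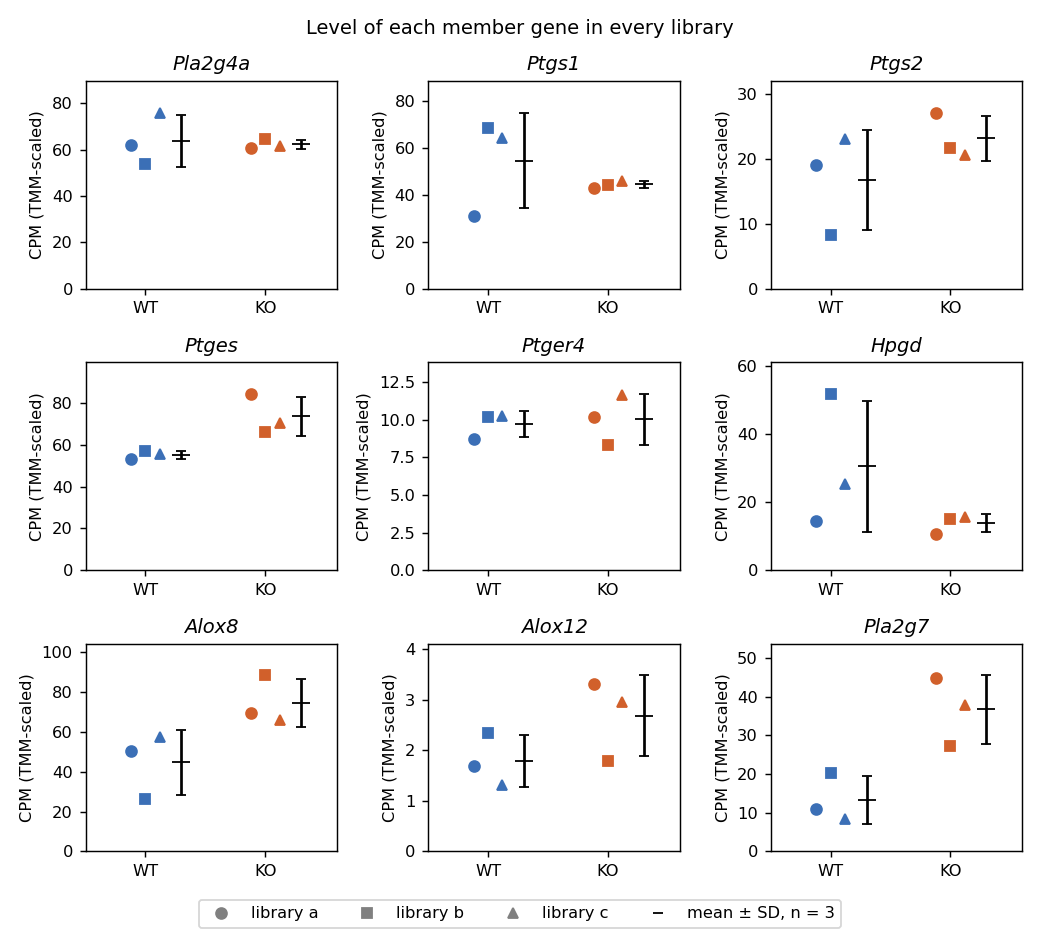
Level of each member gene in CPM scaled by TMM factors (y axis, from 0, one scale per panel) in the 3 WT (blue) and 3 KO (orange) libraries, with the symbol giving the library and the black bar the mean ± SD (n = 3). All KO values lie above all WT values for *Pla2g7*, *Ptges* and *Alox8*, and WT b is the highest library for *Hpgd* (51.8 CPM) and the lowest for *Ptgs2* (8.24 CPM).

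*Pla2g7* (ENSMUSG00000023913, chromosome 17, 43568098 to 43612201, GRCm38) encodes the secreted PAF acetylhydrolase, which hydrolyzes PAF and oxidized phospholipids and is known as a product of macrophages as well. It stood at 11.1, 20.2 and 8.33 CPM in WT and 44.8, 27.3 and 37.9 CPM in KO. The lowest KO library, KO b, was above the highest WT library, WT b, and these 2 were the closest of the groups. Means were 13.2 ± 6.18 CPM in WT and 36.7 ± 8.81 CPM in KO (SD, n = 3). The log2 fold change was 1.48, with a standard error of 0.28 and an adjusted p of 0.0416 from edgeR, or 2.78-fold with a 95% interval of 1.83 to 4.23. An exact two-sided permutation test gave p = 0.1, the smallest that 3 against 3 libraries allow. The direction held in all 7 alternative settings and with each library left out, but the adjusted p was above 0.05 in limma-voom (0.111) and in edgeR with library size only (0.0539), with filterByExpr (0.137) or with a minimum of 10 counts per library (0.140). It was also lost without WT c (0.368), KO a (0.374) or KO c (0.146), and was 0.00486 without WT b. The leukocyte marker sums given above overlapped between the genotypes. Among the fibroblast markers, Dcn had 18, 37 and 13 counts in WT and 128, 33 and 85 counts in KO, with KO a highest and WT c lowest as for *Pla2g7*, whereas Col1a1 had 2679, 882 and 2107 counts in WT and 632, 986 and 813 counts in KO, and their part in the *Pla2g7* difference was not tested. In bulk libraries such as these, more cells that express a gene and more RNA per cell cannot be told apart.

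Among the 8574 other genes with a mean log2 CPM above 4, Smox, Gsdma and Cntfr had the pattern most like that of *Pla2g7*, by the root mean square difference of log2 CPM centred on the mean of the 6 libraries (0.29, 0.32 and 0.32, against a median of 0.88 over these genes). Smox encodes spermine oxidase, Gsdma a gasdermin of the skin and Cntfr a subunit of a cytokine receptor. Smox stood at 21.6, 37.8 and 23.1 CPM in WT and at 71.5, 40.6 and 60.9 CPM in KO. That WT b and KO b were the closest of the groups here too is favored by the choice of these genes by pattern. None of the 3 passed the test (adjusted p = 0.0645, 0.0722 and 0.141 from edgeR).

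Among the members, the gene of the first step of the prostaglandin branch differed little in level. Other phospholipases A2 are given below. *Pla2g4a* (ENSMUSG00000056220, chromosome 1, 149829618 to 149961290), the cytosolic phospholipase A2, was measured at 61.9, 53.8 and 75.9 CPM in WT and 60.8, 64.5 and 61.5 CPM in KO. All KO libraries lay within the WT range. KO was at 97.5% of WT, with a 95% interval of 0.813 to 1.17 for the fold (log2 fold change −0.04, adjusted p = 0.923).

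Both cyclooxygenase genes were expressed. *Ptgs1* (chromosome 2, 36230426 to 36252272) encodes cyclooxygenase 1, the form most tissues make constantly, and was measured at 31.2, 68.3 and 64.2 CPM in WT and 43.1, 44.3 and 45.8 CPM in KO. WT a was the lowest of all libraries and WT b and c the highest, while the KO libraries lay close together, with a coefficient of variation of 3.04% against 37.3% in WT. The log2 fold change was −0.30 (SE 0.22, adjusted p = 0.671), and without WT a it was −0.57 (SE 0.10, adjusted p = 0.0158 from edgeR). *Ptgs2* (chromosome 1, 150100031 to 150108227) encodes cyclooxygenase 2, the inducible form, and was measured at 19.1, 8.24 and 23.1 CPM in WT and 27.2, 21.7 and 20.7 CPM in KO. The groups overlapped, with WT b far below the other libraries. Its log2 fold change was 0.46 (SE 0.28, adjusted p = 0.591), and 0.13 without WT b.

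*Ptgs2* and *Pla2g4a* are neighbors on chromosome 1, transcribed away from each other with 139 kb between them. WT b was the lowest of the 6 libraries for both, but the range over libraries was narrow for *Pla2g4a* (53.8 to 75.9 CPM) and wide for *Ptgs2* (8.24 to 27.2 CPM).

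When counts were divided by exon length, so that levels of different genes can be compared, *Ptgs2* made up 34.2%, 9.29% and 23.4% of cyclooxygenase transcripts in WT and 34.8%, 29.4% and 27.7% in KO. *Ptgs1* thus made up the larger share in each library. The mean share of *Ptgs2* was 22.3 ± 12.5% in WT and 30.6 ± 3.73% in KO (SD, n = 3). An exact two-sided permutation test gave p = 0.4, where 0.1 is the smallest that 3 against 3 libraries allow. With so few libraries and this spread in WT, it does not show that the shares were the same. The difference of 8.32 percentage points was 1.80 without WT b.

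*Ptges* (ENSMUSG00000050737, chromosome 2, 30889471 to 30929863) encodes the inducible microsomal PGE2 synthase. Its level was 53.1, 56.9 and 55.6 CPM in WT and 84.3, 66.3 and 70.2 CPM in KO. All KO libraries were above all WT libraries, and the WT libraries varied little. The log2 fold change was 0.41 (SE 0.10), or 1.33-fold with an interval of 1.14 to 1.56 that is not adjusted for the number of genes. The adjusted p was 0.108 in edgeR, 0.195 in limma-voom and 0.0318 in DESeq2. A pseudogene on the same strand within *Ptges*, Gm13400, had no counts. *Ptger4* (chromosome 15, 5206661 to 5244187), the gene of the PGE2 receptor EP4, was at 8.72, 10.2 and 10.3 CPM in WT and 10.2, 8.30 and 11.7 CPM in KO. The groups overlapped fully, and the interval of the fold was 0.804 to 1.32 (adjusted p = 0.938).

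*Hpgd* (ENSMUSG00000031613, chromosome 8, 56294552 to 56321046) encodes the dehydrogenase that inactivates prostaglandins. It was measured at 14.5, 51.8 and 25.2 CPM in WT and 10.8, 15.1 and 15.5 CPM in KO. In GENCODE M21 it overlaps Gm45540 on the same strand, which is not analysed here, so reads shared with it are uncertain. WT b was far above all others, and WT a lay within the KO range. The log2 fold change was −1.15 (SE 0.35, adjusted p = 0.193). It was −0.53 without WT b (adjusted p = 0.492) and −1.48 without WT a (adjusted p = 0.0128 from edgeR), so the call rested on which WT library was left out. The high value in WT b stood beside the high suprabasal and sebocyte marker sums of that library. Several markers of each of these lists were not highest in WT b, and their part in the *Hpgd* value was not tested.

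The ratio of *Ptges* to *Hpgd* counts, a measure chosen after the values were seen and therefore not tested, was 3.66, 1.1 and 2.21 in WT and 7.84, 4.37 and 4.54 in KO. The KO libraries were all above the WT libraries. These counts are not divided by exon length, so the ratio does not say which gene had the higher level. Per kb of exon, *Hpgd* was above *Ptges* in WT b (30.8 against 14.5 CPM per kb) and WT c (15 against 14.2 CPM per kb) and below it in the other libraries.

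Both lipoxygenase members lie on chromosome 11, as *Itga3* does, at 25.8 Mb (*Alox8*) and 24.8 Mb (*Alox12*) from it. *Alox8* (ENSMUSG00000020891, 69183932 to 69197843) encodes the mouse 8S-lipoxygenase, an enzyme known to be induced by phorbol ester in skin. It was measured at 50.3, 26.5 and 57.6 CPM in WT and 69.7, 88.4 and 66.0 CPM in KO. Each KO library was above each WT library, with WT b the lowest. The log2 fold change was 0.74 (SE 0.22), or 1.67-fold (interval 1.19 to 2.34, not adjusted), and the adjusted p of 0.192 did not pass. Without WT b the log2 fold change was 0.47 (adjusted p = 0.182). *Alox12* (70241457 to 70255353), the platelet-type 12-lipoxygenase, was the scarcest member, with 30 to 78 counts per library. Its level was 1.70, 2.34 and 1.32 CPM in WT and 3.32, 1.78 and 2.95 CPM in KO, and the groups overlapped because KO b lay below WT b (log2 fold change 0.59, SE 0.31, adjusted p = 0.518). Of the 5 platelet and megakaryocyte markers, 2 were not in the table and Pf4 was near 0, and the list, led by Itga2b, summed to 6.28 to 7.32 CPM in WT and 5.06 to 7.98 CPM in KO.

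**Figure D2:**
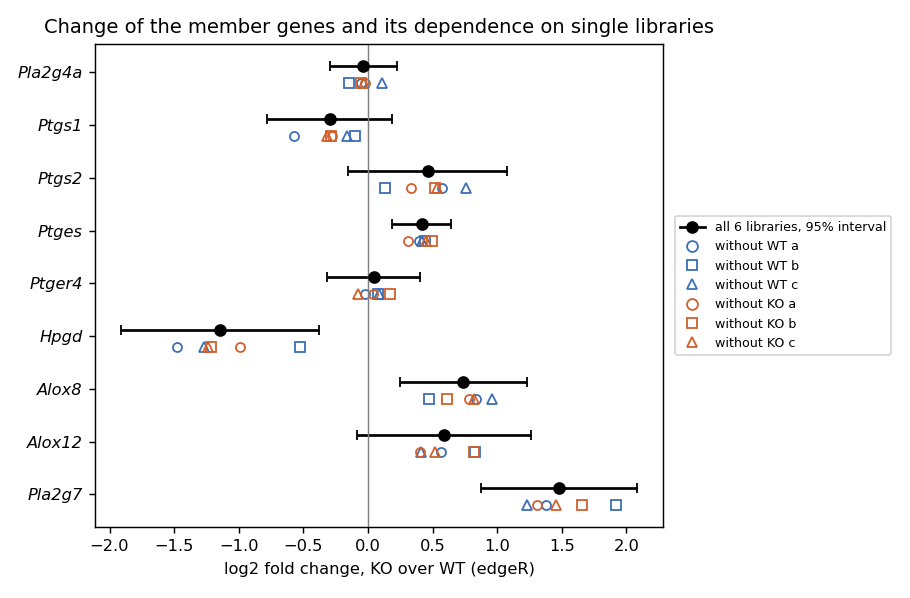
log2 fold change of KO over WT (x axis) for the 9 members, with the 95% interval of each gene from edgeR over all 6 libraries (black, not adjusted for the number of genes) and the value with each library left out (open symbols, blue for WT and orange for KO). The estimate for *Pla2g7* stays between 1.23 and 1.92, while that for *Hpgd* moves to −0.53 and that for *Ptgs2* to 0.13 without WT b.

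The promoters of *Ptges*, *Alox8* and *Hpgd* are shown because all KO libraries were higher for the first 2 and the PGE2 synthase and dehydrogenase are opposed steps. The 250 bases before the RefSeq start of each gene (GRCm38.p6, minus-strand genes read on their own strand) were taken for 10 promoters of the 9 members, *Pla2g4a* having 2. The window of *Pla2g7* is not printed because it overlaps an annotated first exon, but it is counted below. The window of *Ptges* lies inside the gene as annotated in the count table (30889471 to 30929863), as does 1 window of *Pla2g4a*. Capitals mark matches on either strand to GGAATG, the motif of TEAD factors, or GGGCGG, the GC box.
Ptges (chr2:30903298-30903547, minus strand): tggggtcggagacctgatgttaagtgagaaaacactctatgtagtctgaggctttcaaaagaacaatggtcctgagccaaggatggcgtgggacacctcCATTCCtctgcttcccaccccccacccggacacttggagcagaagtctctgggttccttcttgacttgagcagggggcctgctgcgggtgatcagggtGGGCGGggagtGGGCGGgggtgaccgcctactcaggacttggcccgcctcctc
Alox8 (chr11:69197844-69198093, minus strand): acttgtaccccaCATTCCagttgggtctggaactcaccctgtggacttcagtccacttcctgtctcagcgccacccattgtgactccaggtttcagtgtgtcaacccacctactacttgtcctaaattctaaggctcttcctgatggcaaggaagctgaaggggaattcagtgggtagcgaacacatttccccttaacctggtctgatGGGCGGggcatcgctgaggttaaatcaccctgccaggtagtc
Hpgd (chr8:56294302-56294551, plus strand): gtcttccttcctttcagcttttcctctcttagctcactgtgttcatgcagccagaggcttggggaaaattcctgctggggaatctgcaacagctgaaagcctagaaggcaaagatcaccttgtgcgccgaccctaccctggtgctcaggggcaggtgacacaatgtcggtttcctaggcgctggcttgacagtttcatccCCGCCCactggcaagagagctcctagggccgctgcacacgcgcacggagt
The TEAD motif was in the windows of *Ptges*, *Alox8* and *Alox12*, at 151, 238 and 247 bases before the start, which is 3 of 10 member windows against 12.6% of all 32851 promoters. The GC box was in 7 of 10, against 32.7% of all. The TPA response element TGANTCA (6.75% of all promoters), the core TGACG of the cyclic AMP response element (17.8%) and the E-box CACGTG (6.02%) were in 0 of 10, and the TATA box TATAAA (12.4%) and CCAAT (33.8%) in 1 each. Matches that overlap were counted separately. These are matches of letters in a short window and say nothing of binding, nor does their absence.

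Ordered by level per kilobase of exon, averaged over both genotypes, the members were *Alox8*, *Ptges*, *Hpgd*, *Ptgs1*, *Pla2g4a*, *Pla2g7*, *Ptgs2*, *Ptger4* and *Alox12*. Within WT the highest mean was that of *Hpgd*, at 18.1 ± 11.4 CPM per kb, and *Alox8* came after *Ptgs1* and *Ptges* at 12.6 ± 4.57 CPM per kb (SD, n = 3). Within KO the highest was *Alox8*, at 21.0 ± 3.37 CPM per kb. *Alox12* was lowest in both, at 0.437 ± 0.125 CPM per kb in WT and 0.657 ± 0.196 CPM per kb in KO. The ranges over the 6 libraries overlapped between neighbors among the first 7. *Ptgs2* was above *Ptger4* in every library, its lowest value being 1.80 and the highest of *Ptger4* 1.75 CPM per kb, and *Ptger4* was above *Alox12* likewise (1.25 against 0.812). The place of *Pla2g7* differed between libraries. It was below *Ptgs2* in WT a and c, at 3.82 and 2.87 CPM per kb, and above *Pla2g4a* in KO a and c, at 15.4 and 13.1 CPM per kb. *Hpgd* was the highest member in WT b, at 30.8 CPM per kb.

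**Figure D3:**
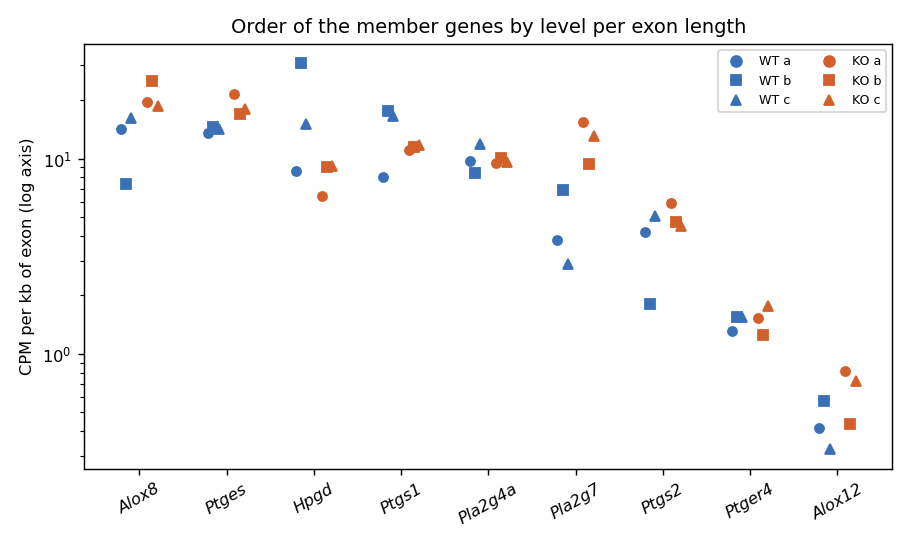
CPM per kilobase of exon (y axis, log scale) of each member in the 6 libraries (blue WT, orange KO, symbol by library), ordered by the mean over both genotypes. *Ptger4* and *Alox12* lie below all other members in each library, and the KO values of *Pla2g7* reach 15.4 CPM per kb.

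The rest of the pathway was read from 60 further genes: other phospholipases A2, PAF enzymes and receptor, prostanoid synthases and receptors, prostaglandin transport and breakdown, other lipoxygenases and leukotriene genes. Of these, 4 had no row in the table and Ptgis, the prostacyclin synthase, had no count. None of the 55 tested passed at an adjusted p below 0.05 in edgeR or limma-voom, and DESeq2 called 1, Pla2g2d. At an unadjusted p below 0.05 edgeR had 8 higher and 3 lower in KO, limma-voom 8 and 2, and DESeq2 7 and 0. Of all 21681 genes, 2503 were below 0.05 in edgeR (11.5%), 2553 in limma-voom and 2057 in DESeq2. In edgeR 1209 of these were higher and 1294 lower in KO. The median log2 fold change of the 55 was 0.03.

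Among the phospholipases A2, Pla2g2f, a secreted enzyme of the epidermis, had the highest level per length. It stood at 30.3, 48.9 and 40.9 CPM in WT and 72.0, 49.3 and 59.1 CPM in KO, with the KO libraries just above the WT libraries (log2 fold change 0.59, adjusted p = 0.172). Pla2g2d, another secreted form, was at 2.02, 1.42 and 2.42 CPM in WT and 5.36, 3.47 and 3.68 CPM in KO, again without overlap (log2 fold change 1.09, adjusted p = 0.102, and 0.0238 in DESeq2). Of 17 phospholipases tested, 5 were higher and 1 lower without overlap, where 8.03% and 8.23% of all genes tested had these patterns, and Pla2g2e and Pla2g5, among those higher, had at most 4 counts in any library.

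Of the 7 PAF genes other than *Pla2g7*, 0 passed the test in edgeR and 1, Pafah1b1, did not overlap between the groups, where 16.3% of all genes tested did not overlap. Pafah1b1, a subunit of the intracellular PAF acetylhydrolase, was highest per length, at 292 ± 23.8 CPM in WT and 338 ± 12.3 CPM in KO (SD, n = 3, log2 fold change 0.21, adjusted p = 0.427). The enzymes that make PAF by remodeling, Lpcat1 and Lpcat2, had log2 fold changes of 0.04 and 0.03. Ptafr, the PAF receptor, had 0 to 4 counts per library, so its level could not be compared at this depth.

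Downstream of the cyclooxygenases, Ptges3, a cochaperone also described as a cytosolic PGE2 synthase, was the most abundant synthase per length (148 ± 28.7 CPM in WT and 178 ± 25.9 CPM in KO, SD, n = 3, adjusted p = 0.543). Akr1b3, an aldo-keto reductase, had a log2 fold change of 0.08 (adjusted p = 0.818). Other prostanoid receptors were scarce. Ptgdr, the receptor of prostaglandin D2, had 13 to 55 counts per library, Ptger2 (EP2) 2 to 29, and Ptgfr, the receptor of prostaglandin F2α, 11 or 12 in WT and 3 to 6 in KO (log2 fold change −1.39, SE 0.47, adjusted p = 0.246). By counts and per length, *Ptger4* was the most abundant prostanoid receptor measured. Slco2a1, which carries prostaglandins into cells, was at 510, 264 and 360 CPM in WT and 274, 337 and 268 CPM in KO (log2 fold change −0.37, adjusted p = 0.519), and the related carrier Slco3a1 at 47.4, 85.0 and 54.1 CPM and 85.1, 71.0 and 114 CPM (0.53, adjusted p = 0.338). For both, the groups overlapped.

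Alox12e, the epidermal 12-lipoxygenase, exceeded all lipoxygenase members and was at 125, 478 and 181 CPM in WT and 135, 114 and 148 CPM in KO. WT b again stood far above the rest, as for *Hpgd*, and the log2 fold change of −0.98 (SE 0.36, adjusted p = 0.305) was −0.21 without that library (adjusted p = 0.755). Without WT a it was −1.31 (adjusted p = 0.0339). Alox12b, a lipoxygenase of the skin barrier, had a log2 fold change of 0.52 (SE 0.20, adjusted p = 0.324). The leukotriene B4 receptors Ltb4r1 and Ltb4r2 had log2 fold changes of 0.19 and 0.38 (adjusted p = 0.638 and 0.281), and all KO libraries were above WT for Ltb4r2. Alox5 and Alox5ap, which leukocytes use to make leukotrienes, were below 0.25 CPM in every library.

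**Figure D4:**
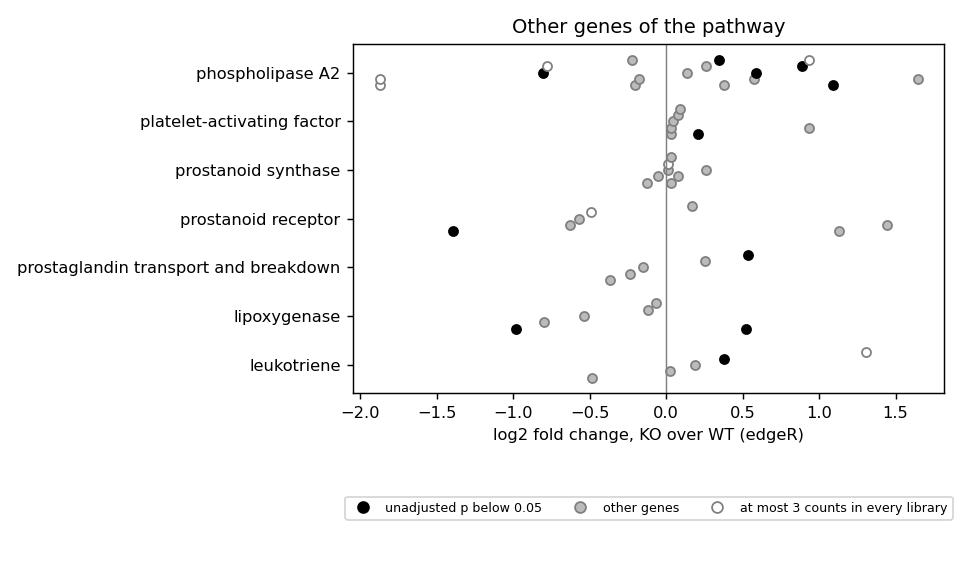
log2 fold change of KO over WT from edgeR (x axis) for the 55 other pathway genes tested, by role (y axis, with points spread vertically to separate them). Black points have an unadjusted p below 0.05 and open points had no more than 3 counts in any library, and none passed after adjustment.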

How the data were processed

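Stranded mRNA libraries were sequenced with single reads of 65 bases. The authors aligned the reads with TopHat 2.1.0 (Bowtie 1.1) to mouse genome build 38 with Ensembl gene models, and deposited, for each gene, the counts of uniquely mapped reads on its strand, as whole numbers per library without normalization. Counts of genes with near-identical copies can be too low, since reads with several matches were dropped. The authors used limma and edgeR with voom.

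After removal of 614 genes at 0 in all libraries, 21681 were tested for KO against WT, 3 libraries each, with edgeR 4.0.16 in R 4.3.3 (TMM factors, glmQLFit, glmQLFTest, Benjamini-Hochberg adjustment, threshold 0.05). Unless another tool is named, adjusted p-values are from this test. CPM values are counts relative to the library total, scaled by TMM factors. Replicates are separate mice per the study's methods. Intervals on folds are 95% intervals from the same fit. Exon lengths, as the union of annotated exons, and overlaps were taken from GENCODE M21 (GRCm38), which held 98.9% of gene identifiers, and coordinates from the count table. The reads carry no molecular identifiers, so the floor of 3 counts covers counting error only. No library was a copy of another (chi-square per degree of freedom of at least 10.7 for each pair).

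Alternatives were limma-voom (3.58.1), DESeq2 (1.42.0), library size only, upper-quartile factors, filterByExpr, at least 10 counts in every library, no filter, and each library left out in turn. The code was tested on simulated counts. The members and gene lists were chosen with earlier results of these data known. Beside the members, the genes named were *Itga3*, the most abundant marker of each cell type list, the most abundant gene and the 2 genes with the smallest p of each pathway role, and the 3 genes closest to the member with the smallest p. Cd34, Krt10, Krt77, Lor, Flg, Ivl, Dcn, Pecam1, Pf4, Cma1, Lyz2, Pla2g2e, Pla2g5, Lpcat1, Lpcat2, Ptgis, Alox5 and Alox5ap were named after their values were seen. The same holds for Krt14, Krt15, Lgr5, Sox9, Lhx2, Itga6, Cidea, Mc5r, Scd3, Mgst1 and Awat2.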

Additional observations from a re-analysis of the deposited data

How the results depend on the processing

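No paired analysis was possible because the columns of the count table carry no sample number, so a replicate block could not be fitted. Over the 7 alternatives in tool, normalization and filter, all 9 members kept their direction. *Pla2g7* had a log2 fold change of 1.55 in limma-voom, 1.46 with library size only, 1.47 with filterByExpr and 1.47 with a minimum of 10 counts per library, and passed in none of these 4, which left 0 members called, whereas DESeq2 called 2 members, *Pla2g7* and *Ptges* (0.42), and 1 other pathway gene. Over all genes, 13 higher and 11 lower were called in limma-voom, 313 and 233 in DESeq2, 8 and 7 with filterByExpr, and 8 and 4 with the minimum of 10 counts. The last 2 settings tested fewer genes (13811 and 13054). The SE of *Pla2g7* was 0.33 in both, against 0.28 in edgeR over 21681 genes. The cause of the fewer calls was not tested. With single libraries left out, 0 to 1 members were called higher and 0 to 2 lower (*Ptgs1* and *Hpgd* without WT a), 0 to 1 other pathway genes lower, and 2 to 260 genes higher and 3 to 261 lower over all genes. The log2 fold change then ranged from 1.23 to 1.92 for *Pla2g7*, from 0.31 to 0.50 for *Ptges*, from −0.57 to −0.10 for *Ptgs1* and from −1.48 to −0.53 for *Hpgd*. It changed sign for *Pla2g4a* (−0.15 to 0.11, the latter without WT c) and for *Ptger4* (−0.076 to 0.17, with −0.02 without WT a and −0.076 without KO c). The KO minus WT difference in the *Ptgs2* share of cyclooxygenase transcripts, 8.32 percentage points, was 9.12 without division by exon length and ranged from 1.80 (without WT b) to 14.3 (without WT a) with single libraries left out, against an SD of 12.5 in WT and 3.73 in KO. The mean CPM of each member without TMM factors moved by less than 1 SD. Depth limits what can be said of *Alox12* and of the pathway genes with a few counts.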
